A study of Mus musculus with 7 samples.

Results

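The transcripts described here belong to 31 genes of the DNA damage response, the system that detects broken or mispaired DNA, signals its presence and repairs it. The genes were listed by symbol, and each was read from its brightest probe set among those annotated to a single gene. Such a probe set was found for 28 of the 31, out of 22180 genes measured, and Rbbp8, Xrcc2 and Fanca were not analysed here. Gene expression was measured on single-colour arrays in the mouse skeletal myoblast line C2C12, an established cell line grown in medium with 15% serum. Every 100 mm dish received 0.2 µmol of siRNA. The groups were siG9a, with siRNA against the histone methyltransferase G9a (gene Ehmt2; 3 arrays), siGLP, with siRNA against its relative GLP (gene Ehmt1; 2 arrays), and Control, with a control siRNA (2 arrays). The labels give neither the time between transfection and harvest nor whether replicates came from separate dishes. The p-values therefore cover the spread among these arrays alone, and that spread may be technical.

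A double-strand break is bound by the Rad50 and Nbn complex or by the Ku dimer (Xrcc5 and Xrcc6), and the kinases Atm, Atr and Prkdc then phosphorylate many targets, among them the checkpoint kinases Chek1 and Chek2. Mdc1 and the ubiquitin ligases Rnf8 and Rnf168 mark the chromatin around the break, which attracts Trp53bp1 and the Brca1-Bard1 dimer. The break is then either joined end to end by the ligase Lig4 or copied from the sister chromatid by homologous recombination, the route in which Brca1, Palb2, Brca2, Exo1, Rad51ap1, Rad54l and Blm act. In dividing cells such as myoblasts in serum-rich medium, many of the recombination genes are transcribed mostly around S phase.

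The knockdowns and the identity of the cells were checked first. Ehmt2 stood at 38.8% of the Control level in siG9a (limma, Benjamini-Hochberg adjusted p = 0.0308) while in siGLP the level of Ehmt1 was 58.0% of Control and did not pass (limma adjusted p = 0.197). Of 10 myoblast markers, Des (log2 signal 10.77 to 11.03 over the 7 arrays), Chrna1 (10.44 to 10.77), Cdh2 (8.99 to 9.25), Myf5 (8.45 to 9.26) and Itga7 (8.26 to 8.58) were bright. Myod1 (6.82 to 7.8), Cdh15 (7.06 to 7.75) and Vcam1 (6.84 to 7.43) were intermediate, and Pax7 (5.03 to 5.57) and Myog (4.97 to 5.8) stood near the middle of all genes, at percentiles 55.6 and 56.3 of the Control levels. Of 9 markers of other cell types, 8 were dimmer than every myoblast marker, among them the leukocyte marker Ptprc (2.73 to 2.93) and the epithelial marker Epcam (3.21 to 3.37). Cd68, a lysosomal protein used as a macrophage marker, was the exception (7.06 to 7.83, percentile 72.3). Cd68 stood above Control by 0.62 in siG9a (SE 0.11; limma adjusted p = 0.133) and 0.54 in siGLP (SE 0.12; limma adjusted p = 0.262), larger differences from Control than any of the repair genes had. Over the 9 markers, 5 lay on the higher side in siG9a (median 0.009) and 6 in siGLP (median 0.077), and Cd68 alone had an unadjusted p under 0.05. Of the 10 myoblast markers, 8 lay on the lower side in siG9a (median -0.215) and 8 in siGLP (median -0.211). Over all genes the lower side held 48.0% and 49.2%. By limma 0 passed, and 5 and 4 were lower at an unadjusted p under 0.05, against 4.57% and 4.13% of all genes. Myod1 stood at -0.68 in siG9a (SE 0.13, limma adjusted p = 0.146). The part of these markers in the values given next was not tested. Across genes, which do not count as independent replicates, Pearson's r between arrays ran from 0.9960 to 0.9969 inside the groups and from 0.9945 to 0.9965 between them. Within siG9a, array 1 stood apart for the repair genes: the median of the 28 genes, relative to the mean of the Control arrays, was -0.045 on array 1, -0.150 on array 2 and -0.128 on array 3. The group's median and counts, and the genes whose siG9a difference moved most without that array, are therefore also given without it.

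The promoters of 3 genes are shown, picked by their unadjusted p against Control. Parp1 had the smallest p of the 28 genes in siG9a, Rnf8 the smallest in siGLP, and Chek2 was among the 4 smallest in both. Each line holds the 250 bases before the RefSeq start on the plus strand of GRCm38.p6, from chr1:180568641-180568890 for Parp1, chr5:110839733-110839982 for Chek2 and chr17:29614539-29614788 for Rnf8. Capitals mark letters found on either strand that match CCAAT, the letters bound by the factor NF-Y, or 1 of 4 spellings of the E2F site, TTTCCCGC, TTTGGCGC, TTTCGCGC and TTTGCCGC. The E-box CAGCTG, a form bound by muscle bHLH factors, was also searched and does not occur in these 3 stretches.
Parp1: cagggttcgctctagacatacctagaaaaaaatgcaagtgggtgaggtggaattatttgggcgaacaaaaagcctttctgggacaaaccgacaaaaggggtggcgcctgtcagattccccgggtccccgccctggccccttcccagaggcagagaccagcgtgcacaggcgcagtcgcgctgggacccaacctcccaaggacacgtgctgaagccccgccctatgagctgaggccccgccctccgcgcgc
Chek2: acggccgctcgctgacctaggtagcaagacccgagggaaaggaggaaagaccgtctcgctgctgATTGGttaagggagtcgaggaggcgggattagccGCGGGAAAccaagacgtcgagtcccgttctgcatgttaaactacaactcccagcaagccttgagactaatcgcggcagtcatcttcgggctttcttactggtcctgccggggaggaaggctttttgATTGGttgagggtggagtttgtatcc
Rnf8: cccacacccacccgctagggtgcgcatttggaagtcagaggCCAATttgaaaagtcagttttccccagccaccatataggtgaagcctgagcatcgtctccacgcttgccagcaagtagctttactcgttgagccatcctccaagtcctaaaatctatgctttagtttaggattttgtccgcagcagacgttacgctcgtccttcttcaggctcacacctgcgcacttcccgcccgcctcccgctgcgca

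The stretch before Chek2 holds an E2F spelling whose first base lies 152 bases before the start, read on the opposite strand, and CCAAT at 186 and 26 bases before it. The stretch before Rnf8 holds CCAAT at 209 bases before the start and no E2F spelling, and the stretch before Parp1 holds none of the letters searched. RefSeq windows of 300 bases, 250 before and 50 after a start, were at hand for 23 of the 28 genes (25 windows). An E2F spelling occurred in 7 of the 25 windows (28.0%), against 2.26% of all 32851 windows. The 7 genes were Bard1, Brca2, Chek2, Mdc1, Msh6, Topbp1 and Xrcc6, and all but Topbp1 held TTTCCCGC. CCAAT occurred in 56.0% of the windows, against 37.4% of all windows, and CAGCTG in 20.0%, against 16.3%. These matches describe letters in a window and do not show binding.

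In siG9a cells the repair transcripts lay slightly below Control as a group, and no single gene passed the test. Of the 28 genes, 26 lay on the lower side, against 48.0% of all genes tested, and their median log2 difference was -0.096, against 0.005 over all genes. None of the 28 reached a limma adjusted p under 0.05 over all genes, the threshold used throughout, which 0.0271% of all genes reached. At an unadjusted p under 0.05, 4 were lower (Parp1, Rad50, Xrcc5 and Chek2), which is 14.3% of the members against 4.57% of all genes, and 0 were higher, against 5.95%. The 3 siG9a arrays lay below both Control arrays without overlap for 13 of the 28 genes, against 11.7% of all genes, and above them for 0, against 14.0%. Without siG9a array 1 the median was -0.149, 27 genes lay on the lower side and 6 were lower at an unadjusted p under 0.05. Leaving out Control array 2 also made the median lower, with 26 genes still on the lower side. Leaving out some of the other arrays weakened the shift. The median was -0.073 without siG9a array 2, and 21 genes lay on the lower side without Control array 1. Without siG9a array 3, 3 genes were lower at an unadjusted p under 0.05. The members and lists were chosen with results of these data known, so the counts are descriptions.

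**Figure D1:**
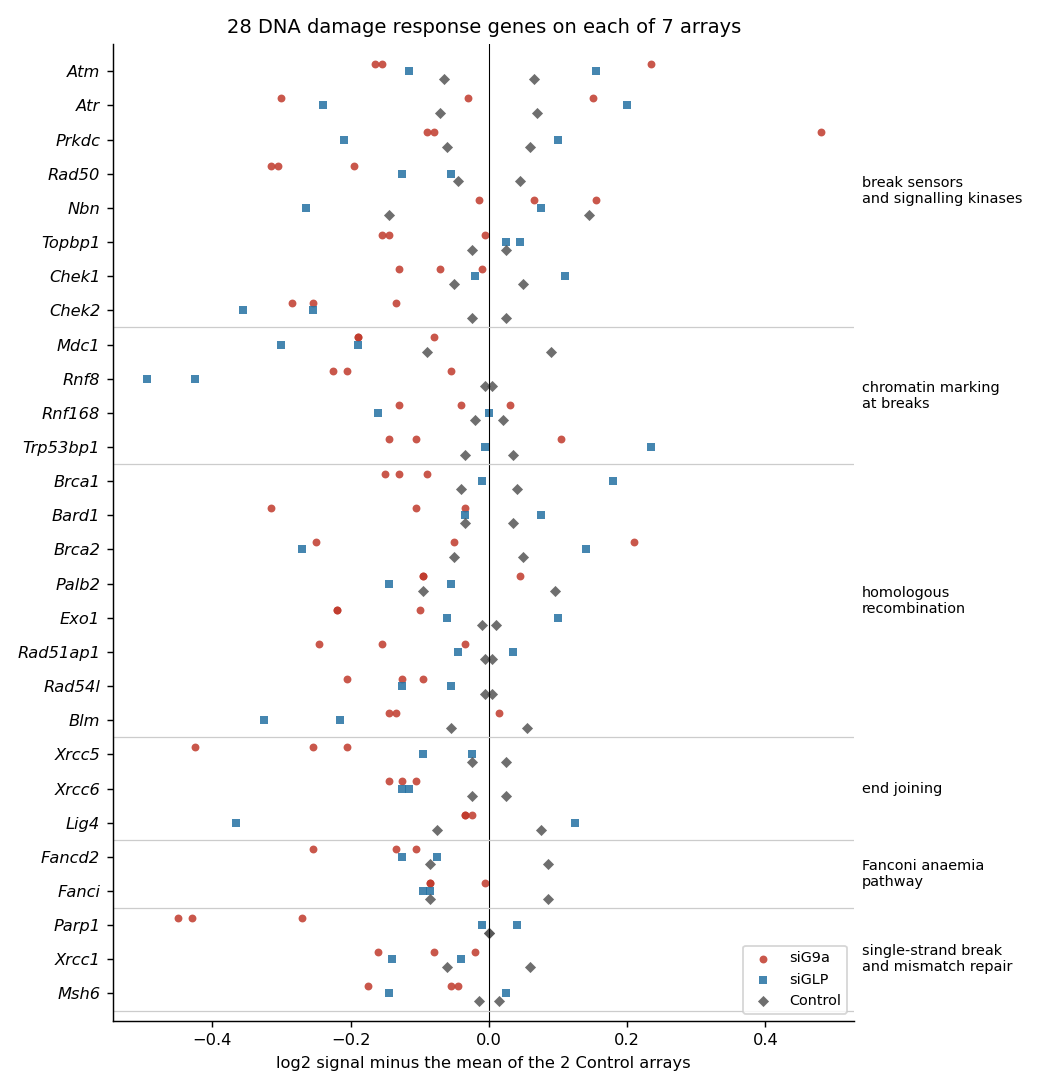
Log2 signal of each of the 28 measured genes (rows, ordered by role) on each of the 7 arrays, minus the mean of the 2 Control arrays. Circles are siG9a arrays, squares siGLP arrays and diamonds Control arrays. The siG9a circles lie left of both diamonds for 13 genes, among them Parp1, Xrcc5 and Rad50, and the siGLP squares of Rnf8 lie farthest left of all siGLP values.

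Among the break sensors and signalling kinases, Rad50 and Chek2 stood lowest in siG9a. Rad50, the ATPase of the complex that holds broken ends, had log2 signals of 8.75, 8.64 and 8.63 on the siG9a arrays, 8.82 and 8.89 on the siGLP arrays, and 8.99 and 8.90 on the Control arrays. Every siG9a array lay below every other array, while the siGLP arrays lay between the groups, close below Control. Its siG9a minus Control difference was -0.27 (SE 0.071; limma adjusted p = 0.249), a level 82.9% of Control. Chek2, the checkpoint kinase downstream of Atm, had 6.82, 6.97 and 6.85 in siG9a, 6.75 and 6.85 in siGLP, and 7.13 and 7.08 in Control. All 5 knockdown arrays lay below both Control arrays, and the siG9a and siGLP arrays overlapped each other. The difference from Control was -0.22 in siG9a (SE 0.073; limma adjusted p = 0.353) and -0.30 in siGLP (SE 0.080; limma adjusted p = 0.351), both measured against the same Control arrays.

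The other 6 genes of this role gave no difference from Control with an unadjusted p under 0.05 in either knockdown. Chek1, the kinase downstream of Atr, stood at -0.07 in siG9a (95% interval -0.25 to 0.11) and 0.05 in siGLP (-0.15 to 0.24). Topbp1, which activates Atr, stood at -0.10 in siG9a (-0.27 to 0.06) and 0.03 in siGLP (-0.15 to 0.21), and its siGLP arrays (9.84 and 9.82) lay just above the Control arrays (9.82 and 9.77). Its siG9a value was -0.15 without siG9a array 1 and -0.07 without siG9a array 2. Nbn, the partner of Rad50, stood at 0.07 in siG9a and -0.10 in siGLP, and its arrays overlapped in both comparisons. The kinase genes Atm, Atr and Prkdc had wide intervals. Atm, the kinase that answers double-strand breaks, had 7.40, 7.01 and 7.0 in siG9a, 7.32 and 7.05 in siGLP, and 7.23 and 7.10 in Control. The Atm arrays of both knockdowns spread to either side of Control, and its difference was -0.03 in siG9a (-0.38 to 0.32) and 0.02 in siGLP (-0.36 to 0.40). Without siG9a array 1 the siG9a value was -0.16 for Atm and -0.17 for Atr, against -0.06 for Atr with all arrays. Other omissions moved these values the other way, to 0.04 for Atm without Control array 1 and 0.05 for Atr without siG9a array 2.

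The genes with the widest intervals also shared a pattern between groups. The standard error of the siG9a minus Control difference was 0.15 to 0.19 for Atm, Atr, Prkdc and Brca2, against 0.058 to 0.14 for the other 24 genes. In each of these 4 genes the array numbered 1 was the highest of its group in siG9a, siGLP and Control alike. Prkdc, the catalytic kinase subunit of end joining, had 6.70, 6.14 and 6.13 in siG9a, 6.32 and 6.01 in siGLP, and 6.28 and 6.16 in Control. Its siG9a minus Control difference was 0.10 (95% interval -0.35 to 0.55). It turned to -0.09 without siG9a array 1 and was 0.20 without siG9a array 3. Across all members 12 of 28 (42.9%) showed the array numbered 1 highest in all 3 groups, against 10.1% of all genes, and Nbn alone showed it lowest in all 3, against 10.9%. The 8 others with array 1 highest were Topbp1, Mdc1, Trp53bp1, Palb2, Blm, Fancd2, Fanci and Xrcc1, which belong to the 24 genes with smaller standard errors. The labels do not say what the arrays numbered 1 share. The part of this pattern in the results was not tested beyond the fit with the replicate number as a block. Only siG9a has an array numbered 3, so the block also takes that array out of the group differences. With the block the siG9a median was -0.093, the same as without siG9a array 3, and the siGLP median -0.074. In the block fit 3 members, against 4, were lower in siG9a at an unadjusted p under 0.05. In siGLP minus siG9a 2 were higher and 2 lower, against 5 and 1. For every member the siG9a difference with the block equalled, after rounding, the value without siG9a array 3. Leaving out that array with no block also gave 3 lower in siG9a and 2 higher in siGLP minus siG9a. What the block itself added to the counts was not tested.

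Of the genes that mark chromatin at breaks, Rnf8 had the largest difference from Control among all 28 genes in either knockdown. Rnf8, the first ubiquitin ligase at the break, had 7.61, 7.44 and 7.46 in siG9a, 7.17 and 7.24 in siGLP, and 7.67 and 7.66 in Control. The siGLP arrays lay below all other arrays, and the siG9a arrays lay between siGLP and Control without touching either. The siGLP minus Control difference was -0.46 (SE 0.082, limma adjusted p = 0.197), a level 72.6% of Control. The siG9a minus Control difference was -0.16 (SE 0.075, limma adjusted p = 0.509). It was -0.22 without siG9a array 1 and -0.13 without siG9a array 2. Mdc1, the adaptor that brings Rnf8 to phosphorylated histone H2AX, had 7.58, 7.47 and 7.47 in siG9a, 7.47 and 7.36 in siGLP, and 7.75 and 7.57 in Control. Its siGLP arrays lay below both Control arrays, while the highest siG9a array overlapped the lower Control array. Its difference from Control was -0.25 in siGLP (SE 0.090; limma adjusted p = 0.508) and -0.16 in siG9a (SE 0.082; limma adjusted p = 0.561). Without Control array 1 the value was -0.16 in siGLP and -0.07 in siG9a, and without Control array 2 it was -0.34 in siGLP and -0.25 in siG9a.

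Rnf168 and Trp53bp1, which act after Rnf8, stood closer to Control. Rnf168, the ubiquitin ligase that extends the mark, stood at -0.05 in siG9a (95% interval -0.23 to 0.14) and -0.08 in siGLP (-0.28 to 0.12). Trp53bp1, which binds the marked chromatin and shields ends from resection, had 7.67, 7.42 and 7.46 in siG9a, 7.80 and 7.56 in siGLP, and 7.60 and 7.53 in Control. Its groups overlapped, and its difference was -0.05 in siG9a (-0.30 to 0.21) and 0.12 in siGLP (-0.16 to 0.40). The siG9a value was -0.12 without siG9a array 1 and 0 without siG9a array 2.

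The genes of homologous recombination gave no call in either knockdown. In siG9a all 8 measured genes lay on the lower side, with a median log2 difference of -0.134 and a range of -0.18 to -0.03. In siGLP 5 of the 8 lay on the lower side, with a median of -0.038. Over all genes the lower side held 48.0% in siG9a and 49.2% in siGLP. Exo1, the nuclease that resects ends, had 8.05, 8.17 and 8.05 in siG9a, 8.21 and 8.37 in siGLP, and 8.28 and 8.26 in Control. Every siG9a array lay below both Control arrays, and the siGLP arrays lay on either side of them. Its difference was -0.18 in siG9a (SE 0.075; limma adjusted p = 0.480) and 0.02 in siGLP (SE 0.083; limma adjusted p = 0.968). Brca1, the ubiquitin ligase that promotes resection, had 7.52, 7.48 and 7.46 in siG9a, 7.60 and 7.79 in siGLP, and 7.57 and 7.65 in Control. Its siG9a arrays lay below all others, at -0.13 from Control (SE 0.076, limma adjusted p = 0.623). Its lower siGLP array lay between the Control arrays and the higher above both, at 0.08 (SE 0.084, limma adjusted p = 0.843).

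Blm, the helicase that unwinds recombination intermediates, was lowest in siGLP. It had 7.35, 7.20 and 7.19 in siG9a, 7.12 and 7.01 in siGLP, and 7.39 and 7.28 in Control. Its siGLP arrays lay below all others, and its siG9a arrays overlapped Control. The difference was -0.27 in siGLP (SE 0.089, limma adjusted p = 0.454) and -0.08 in siG9a (SE 0.081, limma adjusted p = 0.754). The siG9a value was -0.14 without siG9a array 1 and -0.03 without Control array 1. Rad54l, a motor protein that works with the strand exchange filament, had 7.42, 7.45 and 7.34 in siG9a, 7.42 and 7.49 in siGLP, and 7.54 and 7.55 in Control. All 5 knockdown arrays lay below Control, at -0.14 in siG9a (SE 0.066) and -0.09 in siGLP (SE 0.072), with limma adjusted p of 0.513 and 0.790. Bard1, the partner of Brca1, and Rad51ap1, a stimulator of strand exchange, both stood at -0.15 in siG9a, and in siGLP at 0.02 and -0.01. Without siG9a array 1 the siG9a value of Rad51ap1 was -0.21 and that of Brca2 was -0.15. Rad51ap1 stood at -0.10 without siG9a array 3, and Brca2 at 0.08 without siG9a array 2. Brca2, which loads the strand exchange protein, stood at -0.03 in siG9a (95% interval -0.43 to 0.36) and -0.07 in siGLP (-0.50 to 0.36), and Palb2, its bridge to Brca1, at -0.05 in siG9a and -0.10 in siGLP.

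**Figure D2:**
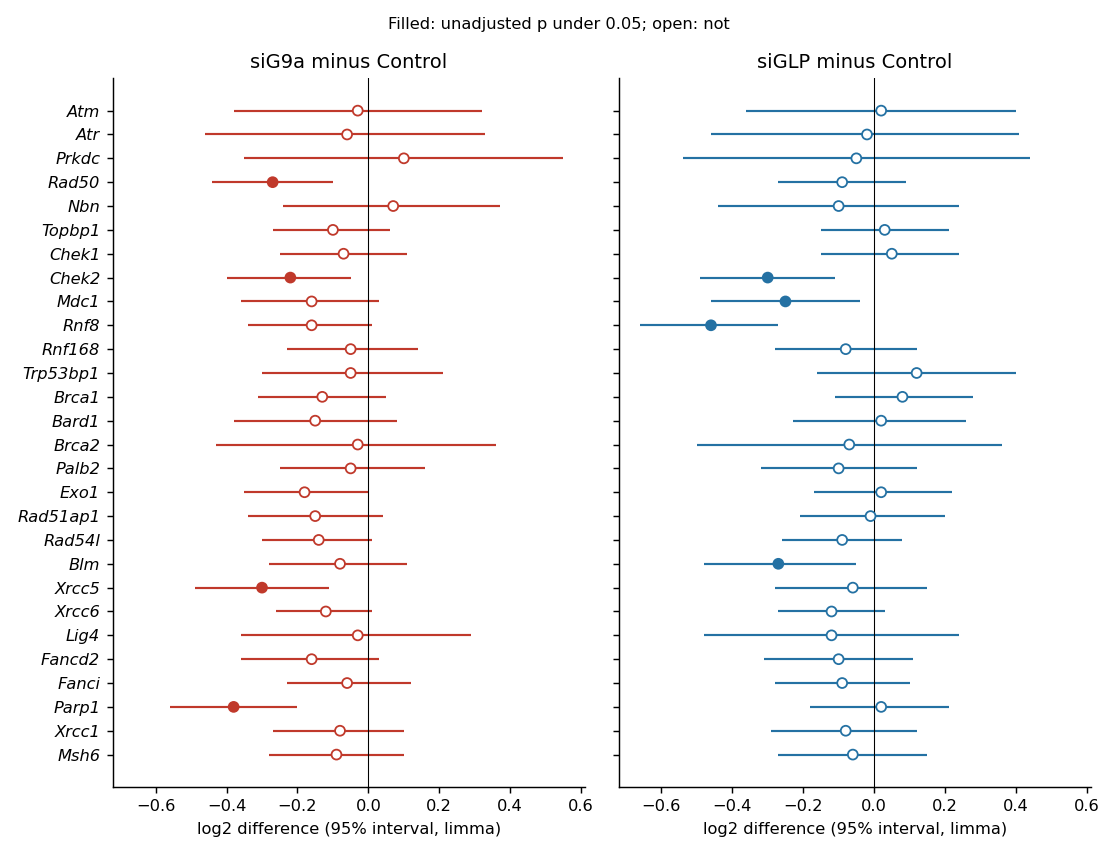
Log2 difference from Control for each of the 28 genes in siG9a (left) and siGLP (right), with 95% intervals from limma; filled points have an unadjusted p under 0.05. The 4 filled points in siG9a are Rad50, Chek2, Xrcc5 and Parp1, those in siGLP are Chek2, Mdc1, Rnf8 and Blm, and none passed after adjustment over all genes.

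Both subunits of the Ku dimer of end joining lay on the lower side in both knockdowns, and a difference between the subunits was not tested. Xrcc5, the larger subunit, had 8.81, 9.03 and 8.98 in siG9a, 9.21 and 9.14 in siGLP, and 9.21 and 9.26 in Control. The siG9a arrays lay below all others, at -0.30 from Control (SE 0.082; limma adjusted p = 0.269), or 81.3% of Control, and the siGLP difference was -0.06 (SE 0.089; limma adjusted p = 0.895). Without siG9a array 1 the siG9a value was -0.23. Xrcc6, the smaller subunit, had 7.81, 7.77 and 7.79 in siG9a, 7.79 and 7.80 in siGLP, and 7.94 and 7.89 in Control. All 5 knockdown arrays lay below both Control arrays and overlapped each other, at -0.12 in siG9a (SE 0.058; limma adjusted p = 0.525) and -0.12 in siGLP (SE 0.063; limma adjusted p = 0.705). Lig4, which seals the ends, stood at -0.03 in siG9a and -0.12 in siGLP, where its arrays lay far apart (7.01 and 6.52).

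Parp1 had the largest difference in siG9a. Parp1, which senses single-strand breaks and builds poly(ADP-ribose) on proteins around them, had 8.85, 9.01 and 8.83 in siG9a, 9.27 and 9.32 in siGLP, and 9.28 on both Control arrays. Every siG9a array lay below every other array, and the siGLP arrays lay on either side of Control. Its mean log2 signal was 8.90 ± 0.10 in siG9a (SD, n = 3), 9.30 ± 0.031 in siGLP (SD, n = 2) and 9.28 ± 0.0051 in Control (SD, n = 2). The siG9a minus Control difference was -0.38 (SE 0.076; limma adjusted p = 0.157), a level 76.7% of Control, and it ranged from -0.44 to -0.35 when any 1 array was left out. In siGLP the difference was 0.02 (95% interval -0.18 to 0.21). Xrcc1, the scaffold that Parp1 calls to single-strand breaks, stood at -0.08 in both knockdowns, and Msh6, which recognises mispaired bases, at -0.09 in siG9a and -0.06 in siGLP. Of the Fanconi genes, whose products form a clamp at crosslinked DNA, Fancd2 stood at -0.16 in siG9a and -0.10 in siGLP, and Fanci at -0.06 and -0.09.

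**Figure D3:**
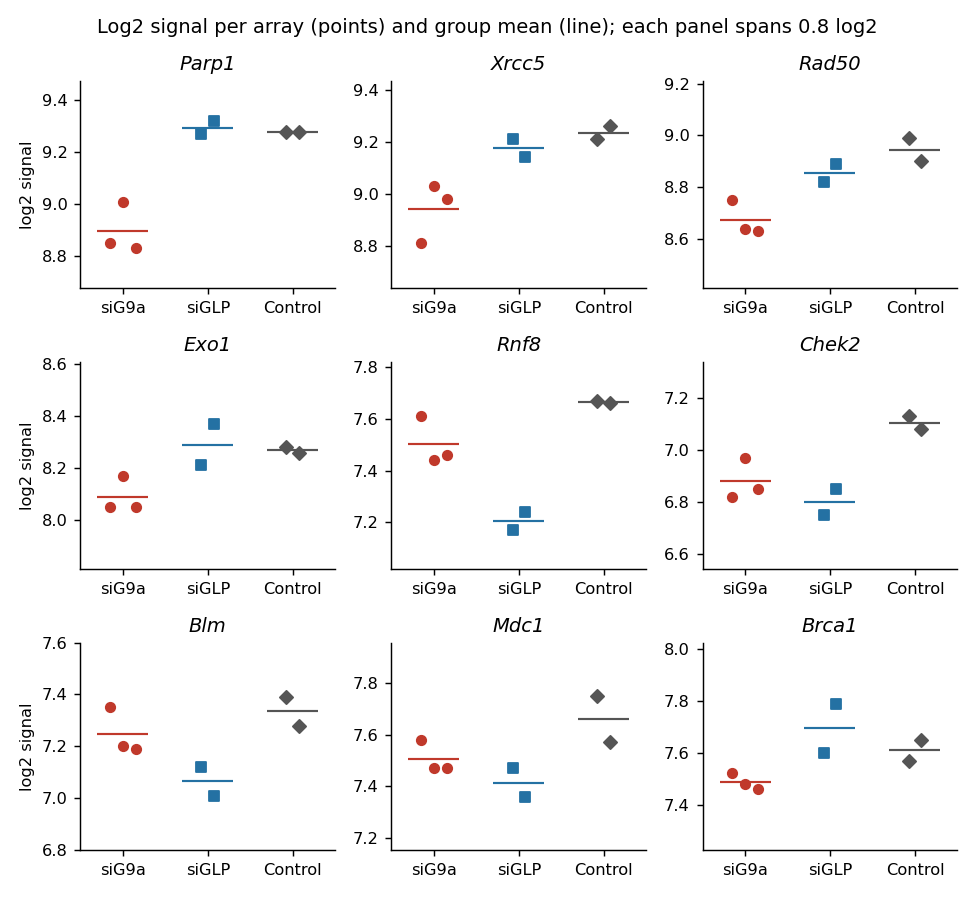
Log2 signal of 9 genes on each array (points) with the group mean (line), for siG9a, siGLP and Control; the vertical axis of every panel spans the same distance and does not start at 0. Parp1, Xrcc5, Rad50, Exo1 and Brca1 are lowest in siG9a, and Rnf8, Blm and Mdc1 have their lowest array in siGLP.

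In siGLP cells the repair transcripts also lay more often below Control than above it. Of the 28 genes, 20 lay on the lower side, against 49.2% of all genes, with a median log2 difference of -0.074, against 0.001 over all genes. By limma 0 passed after adjustment, against 0.00451% of all genes. At an unadjusted p under 0.05, 4 were lower (Rnf8, Chek2, Blm and Mdc1), 14.3% against 4.13% of all genes, and 0 were higher, against 4.51%. The siGLP arrays lay below Control without overlap for 8 genes, against 16.9% of all genes, and above for Topbp1 alone, against 17.4%. The median was -0.018 without Control array 1, and 10 of the 28 differences changed sign without siGLP array 2. When any 1 array was left out the median ran from -0.104 to -0.018 in siGLP and from -0.149 to -0.073 in siG9a, and these ranges overlapped.

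The siRNAs were then set against each other directly, which does not use the Control values other than for the shared spread. Of the 28 genes, 12 lay on the lower side in siGLP relative to siG9a, against 51.4% of all genes, and the median difference was 0.035, against -0.004. By limma 0 passed after adjustment, against 0.234% of all genes. At an unadjusted p under 0.05, 5 were higher in siGLP (Parp1, Xrcc5, Brca1, Exo1 and Rad50), 17.9% against 5.87% of all genes, and 1 was lower (Rnf8), against 6.57%. The arrays of 6 genes lay higher in siGLP than in siG9a without overlap, against 12.1% of all genes, and those of Rnf8 and Blm lay lower, against 14.2%. At an unadjusted p under 0.05, 2 genes were higher without siG9a array 3, against 1066 of all 22180 genes. Without siG9a array 2 the count was 3, against 1197 of all 22180, and it was 6 without siG9a array 1. The median was -0.012 without siG9a array 2, 0.072 without siG9a array 1 and 0.097 without siGLP array 2.

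Parp1 and Rnf8 stood at the ends of that comparison. Parp1 was 1.32-fold higher in siGLP than in siG9a, a log2 difference of 0.40 (SE 0.076; limma adjusted p = 0.107). In the main fit 52 of all 22180 genes passed, but 350 of 11090 did when genes under the median level were dropped. With trended, robust variance moderation 304 of 22180 passed. Parp1 passed in both of these alternatives (limma adjusted p = 0.0374 and 0.0357, in that order). It did not pass in the other alternatives run, and the limma adjusted p ran from 0.132 (without siG9a array 2) to 0.297 (without siGLP array 1) when 1 array was left out. Rnf8 stood at 81.3% of the siG9a level in siGLP, a difference of -0.30 (SE 0.075; limma adjusted p = 0.179), or -0.24 without siG9a array 1. Xrcc5 stood at 0.23 (SE 0.082), Brca1 at 0.21 (SE 0.076), Exo1 at 0.20 (SE 0.075) and Rad50 at 0.18 (SE 0.071), with limma adjusted p from 0.314 to 0.370. Without siGLP array 2 Brca1 and Exo1 each stood at 0.12, and without siG9a array 1 Xrcc5 stood at 0.17. Blm stood at -0.18 (95% interval -0.38 to 0.01; -0.12 without siGLP array 2) and Chek2 at -0.08 (-0.26 to 0.09).

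**Figure D4:**
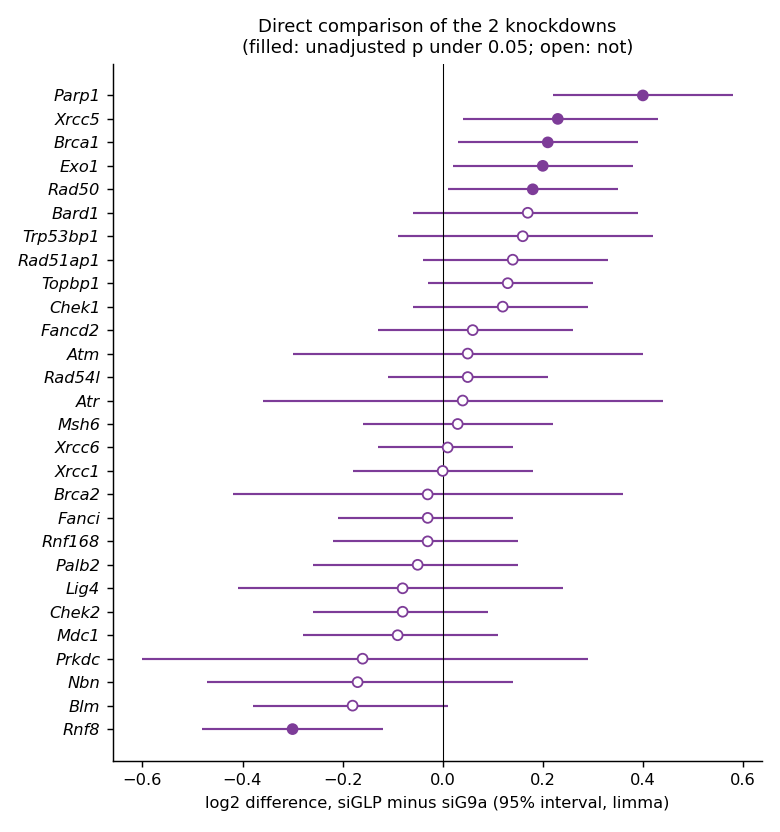
Log2 difference siGLP minus siG9a for the 28 genes, sorted, with 95% intervals from limma; filled points have an unadjusted p under 0.05. Parp1 (0.40) is at the top and Rnf8 (-0.30) at the bottom, and most intervals span 0.

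Other genes of DNA repair, taken from wider lists, were centred near 0. In siG9a 18 of 34 other break repair genes lay on the lower side (median -0.007), as did 12 of 22 other checkpoint genes (median -0.018), 17 of 28 other excision and mismatch repair genes (median -0.019) and 7 of 11 other Fanconi genes (median -0.039). None of these passed by limma. At an unadjusted p under 0.05, 3 were lower and 2 higher, 4 and 2, 1 and 1, and 1 and 0, in that order. The shares over all genes were 4.57% lower and 5.95% higher, and 48.0% lay on the lower side. Hus1, a subunit of the checkpoint clamp that helps to activate Atr, had the largest difference, -0.53 (SE 0.090; limma adjusted p = 0.133) in siG9a. Set directly against siG9a, the siGLP level of Hus1 differed by 0.45 (SE 0.090; limma adjusted p = 0.112). Parp2, a relative of Parp1, stood at -0.20 in siG9a, Polq, a polymerase of end joining, at -0.20, and Usp1, which deubiquitinates Fancd2, at -0.22. In siGLP the medians of these 4 lists lay between -0.033 and -0.004, and 0 genes passed by limma. At an unadjusted p under 0.05, 3 were lower and 1 was higher, against 4.13% and 4.51% of all genes. The break repair factor Abraxas1 stood at -0.20.

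Transcripts of S phase lay to the same side as the repair genes in siG9a. Of 29 genes of DNA replication and S phase entry, 25 lay on the lower side in siG9a (median -0.138) and 14 in siGLP (median 0.004). By limma 0 passed in either. At an unadjusted p under 0.05, 9 were lower and 0 higher in siG9a, and 4 lower and 1 higher in siGLP. Over all genes 4.57% were lower and 5.95% higher in siG9a at that threshold, and 4.13% and 4.51% in siGLP. The lower side held 48.0% of all genes in siG9a and 49.2% in siGLP. The median of this list relative to the Control mean was -0.151 to -0.134 on the siG9a arrays, -0.038 to 0.025 on the siGLP arrays and -0.001 to 0.001 on the Control arrays. The siG9a arrays thus lay below all others for the S phase list. Of 22 genes of G2 and mitosis, 19 lay on the lower side in siG9a (median -0.049) and 14 in siGLP (median -0.063), and 0 passed by limma, with 6 and 2 lower at an unadjusted p under 0.05. The part of cell cycle distribution in the repair gene values was not tested, and in bulk RNA fewer cells in a phase and less RNA per cell cannot be told apart.

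Targets of p53, the factor that the damage kinases activate, lay mostly on the higher side, where none passed by limma. Of 18 measured targets, 14 lay on the higher side in siG9a (median 0.074) and 13 in siGLP (median 0.059). The median of the list relative to the Control mean was 0.145, 0.065 and 0.033 on the siG9a arrays, 0.104 and 0.025 on the siGLP arrays, and 0.034 and -0.034 on the Control arrays. The lowest array of each knockdown thus lay below the higher Control array. At an unadjusted p under 0.05 the lower and higher counts were 1 and 2 in siG9a, where 0 passed by limma. They were 2 and 4 in siGLP. The shares over all genes were 4.57% and 5.95% in siG9a, and 4.13% and 4.51% in siGLP. On the lower side lay 48.0% of all genes in siG9a and 49.2% in siGLP. Cdkn1a, the CDK inhibitor p21, stood at 0.33 in siG9a (SE 0.069; limma adjusted p = 0.178) and 0.24 in siGLP (SE 0.075; limma adjusted p = 0.434). Mdm2, the ubiquitin ligase of p53, stood at 0.34 in siGLP (limma adjusted p = 0.405) and Btg2, an antiproliferative gene, at 1.03 in siG9a (limma adjusted p = 0.248). Rrm2b, the p53-induced ribonucleotide reductase subunit, stood at -0.42 in siG9a (limma adjusted p = 0.149). The list's only call in a comparison with Control was Ei24, which fell in siGLP, with a log2 difference of -1.39 from Control (limma adjusted p = 0.014, SE 0.081).

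**Figure D5:**
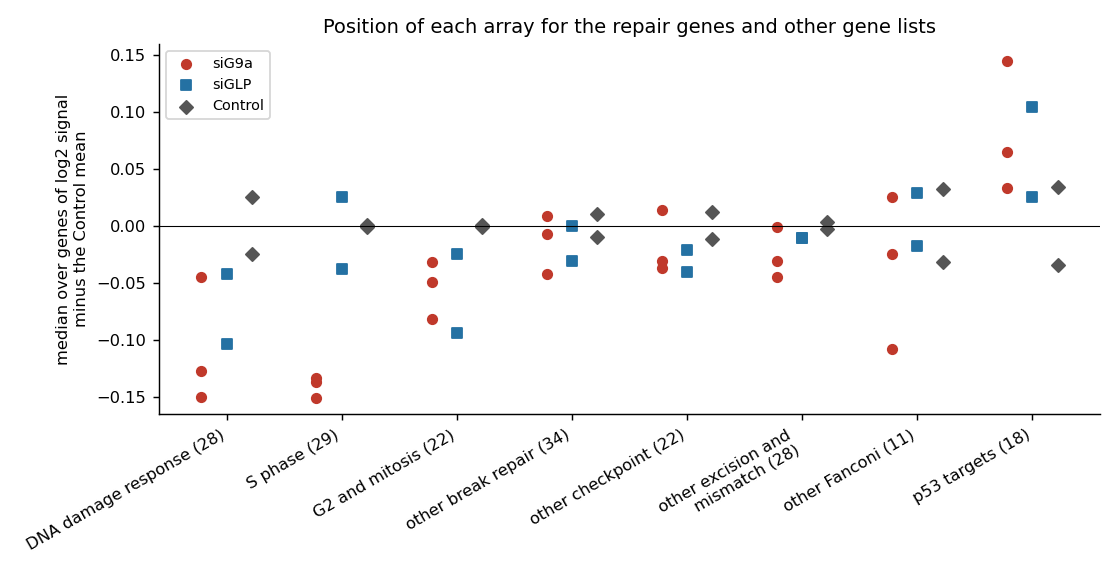
Median over the genes of a list of the log2 signal minus the Control mean, on each array, for the 28 repair genes and 7 other lists; circles are siG9a, squares siGLP and diamonds Control, with the number of genes in parentheses. For the repair genes siG9a arrays 2 and 3 lie lowest (-0.150 and -0.128), and for S phase all 3 siG9a arrays lie lowest (-0.151 to -0.134).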

How the data were processed

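The deposited table holds log2 signals per probe set, 1 column per array (33649 probe sets, 7 arrays). The authors made these log2 values with RMA, per the submitters' processing notes, which also name Partek; versions, scan dates and the authors' test are not given there. RMA subtracts background, equalizes the arrays' quantiles and compresses dim signals, so differences are relative to the bulk of transcripts. The log2 scale was taken from the range of the values, and the number of arrays limits the precision.

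Groups came from the sample titles. The platform annotation gave a single symbol to 23521 probe sets, and of these 23328 were updated by gene number with RefSeq (GRCm38.p6). The probe set with the highest mean was kept per gene, leaving 22180 genes with no filter on level. Of the 28 measured members only Atr had a second such probe set. Limma 3.58.1 in R 4.3.3 was fitted to all 7 arrays with 1 mean per group (4 residual degrees of freedom, 6.89 with moderation), with two-sided p-values adjusted by Benjamini-Hochberg over all genes at 0.05. The scripts were tested on simulated data. Promoter windows came from RefSeq (GRCm38.p6), and motifs were searched on both strands.

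The members and lists were chosen with earlier results of these data known. Every member may be named. Array values are given for the members with the 6 smallest p-values against Control in siG9a or siGLP and in the direct comparison, and for Brca1, Atm and Trp53bp1; those of Prkdc, and some of Topbp1 and Lig4, were added after their values were seen. From each other list up to 4 genes with the smallest p per contrast may be named. Alternatives tried were only the arrays of the groups compared, a replicate block, quantile and cyclic loess normalization, filters on low values, other variance moderation, the mean of all probe sets, and leaving out each array.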

Additional observations from a re-analysis of the deposited data

How the results depend on the processing

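Under the alternatives tried, no member passed the limma threshold against Control, and Parp1 alone passed in siGLP minus siG9a: 1 member when genes under the median level were dropped (limma adjusted p = 0.0374) and 1 with trended, robust moderation (0.0357). Over all genes, 350 of 11090 and 304 of 22180 passed in these fits, in that order, against 52 of 22180 in the main fit. All 28 members passed both filters on low values. In siG9a the members lower at an unadjusted p under 0.05 numbered 7 under quantile normalization and 7 under cyclic loess, against 4, and 3 to 6 when 1 array was left out. In siG9a the median ranged from -0.149 (without siG9a array 1) to -0.073 (without siG9a array 2), and the members on the lower side from 21 (without Control array 1) to 27. In siGLP the median ranged from -0.104 (without siGLP array 1) to -0.018 (without Control array 1), the members on the lower side from 19 to 20, and those lower at an unadjusted p under 0.05 from 2 to 5. In siGLP minus siG9a the median ranged from -0.012 (without siG9a array 2) to 0.097 (without siGLP array 2), the members on the lower side from 8 to 16, those higher at an unadjusted p under 0.05 from 2 (without siG9a array 3 or siGLP array 2) to 6, with 3 without siG9a array 2 or siGLP array 1, and those lower from 1 to 2. With genes below the median left out 2 members were lower there, against 1272 of 11090 genes. The cause of these moves was not tested.

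Whether equal replicate numbers pair the arrays was looked at over all genes only. The r between same-numbered arrays' deviations from their group means ran from 0 to 0.17 over 6 pairs. Between arrays of different number it ran from -0.17 to 0.15, where deviations in a group of 2 arrays mirror each other. A pairing within the members was not tested this way. With the replicate block, 2 members were higher and 2 lower in siGLP minus siG9a at an unadjusted p under 0.05, against 5 and 1. In siG9a 3 were lower, against 4, and none passed over all genes. The block also took siG9a array 3, the only array numbered 3, out of the differences.

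Of 1344 recomputed member differences, 45 changed sign, 42 of them when 1 array was left out. Among those that moved by more than the gene's own replicate SD, in siG9a Fanci ranged from -0.14 to 0.03 and Palb2 from -0.14 to 0.05 when 1 array was left out. In siGLP the ranges were -0.27 to 0.07 for Nbn, -0.01 to 0.18 for Brca1, -0.36 to 0.13 for Lig4 and -0.15 to 0.03 for Msh6. In siGLP minus siG9a they were -0.06 to 0.12 for Msh6 and -0.33 to 0.16 for Lig4.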
